A study of Mus musculus with 157 samples.

Results

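Particle-exposed macrophages gained 5667 binding peaks of the transcription factor TFEB that the study listed as gained with monosodium urate crystals (MSUc), the crystals that form in gout. Of these, 2207 (38.9%) overlapped by at least 1 bp one of the 4756 peaks of the histone methyltransferase DOT1L gained with MSUc, and these shared TFEB and DOT1L peaks are described here. They were chosen by the ChIP-seq (chromatin immunoprecipitation and sequencing) signals of TFEB and DOT1L, from which the authors called the gains, so gained binding of both proteins is the selection and not a result. The other gained TFEB peaks were 983 that overlapped a gained TFE3 peak but no gained DOT1L peak, and 2477 that overlapped neither, while 2543 gained DOT1L peaks overlapped no gained TFEB peak.

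All cells were bone marrow-derived macrophages, grown from mouse bone marrow in medium with the growth factor M-CSF. TFEB ChIP-seq compared 2 MSUc libraries with 3 libraries of the control PBS, and DOT1L ChIP-seq compared 3 with 3. TFE3 ChIP-seq had only 1 MSUc library, with 2 PBS libraries. How the authors combined these libraries when calling gained peaks is not given in the sources used here. Expression came from 8 RNA-seq experiments with 115 libraries in 45 groups of 2 or 3, each library holding 2.12 to 22.1 M reads (median 10.1 M). In the time course, MSUc was set against PBS after 10 min, 30 min, 1 h, 2 h and 5 h in wild-type cells. In the particle set, wild-type cells received MSUc, calcium pyrophosphate crystals (CPPDc), silica nanoparticles or aluminum hydroxide, against PBS; every particle in the study was given at 250 µg/mL. The Tfe3 experiment compared cells labelled Tfe3KO with Tfe3WT, each with MSUc or PBS; libraries of both labels with CPPDc or silica entered the fit and are not compared here. The Tfeb experiment compared cells that carry a Tfeb transgene (Tfeb-Tg; the promoter that drives it is not given in the sources used here) with TfebWT, each with MSUc or PBS. The inhibitor experiment compared 1 µM SGC0946, an inhibitor of DOT1L given from day 0 of culture, with vehicle, each with MSUc or PBS. The metformin experiment compared metformin, given a day before the crystals, with vehicle, and the Ampka1 experiment compared Ampka1KO with Ampka1WT macrophages from mice of 7 to 8 weeks. Ampka1 cells grew in RPMI medium with 5 ng/mL M-CSF, and wild-type, Tfeb-Tg and Bhlhe cells in DMEM with 16 ng/mL; for the Tfe3 cells neither is given in the sources used here. The last experiment compared Bhlhe40KO (B40KO below) and Bhlhe41KO (B41KO) with WT cells, all with MSUc, and WT cells with MSUc against PBS. PBS libraries of metformin, Ampka1KO, B40KO and B41KO also entered the fits and are not compared here. For the histone marks H3K27ac and H3K4me3 the column headers name 5 h. Ages of the other mice, the dose of metformin and the other exposure times outside the time course are not given in the sources used here. In all 12 samples titled Tfe3WT the genotype label read Tfe3KO, so in this experiment only the titles tell the genotypes apart. Cells called labelled Tfe3KO or Tfe3WT here are so by title. For 1 TfebWT MSUc library (replicate 3) the treatment label read PBS. The titles were followed throughout.

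TFEB and its relative TFE3 are basic helix-loop-helix leucine zipper factors of the MiT/TFE family. When mTORC1, the growth-promoting kinase at the lysosome, is inactive, they enter the nucleus, bind E-box and M-box motifs and raise genes of lysosomes and autophagy; in macrophages they also take part in inflammatory gene expression. DOT1L is the methyltransferase of H3K79, a histone position within the bodies of transcribed genes, and is found with elongation factors of the AF9 and AF10 type. H3K27ac marks active enhancers and promoters, and H3K4me3 marks active promoters.

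No genome sequence was at hand, so the letters of a peak could be read only where it reached a RefSeq promoter window of GRCm38.p6 (the mm10 build of the peak lists), which runs from 250 bases before to 50 bases after a gene's start. Of the 2207 shared peaks, 15 reached such a window, each in part; 14 of the windows belonged to a gene other than the annotated nearest gene and 1, of Tox2, to the nearest gene itself. The motifs searched on both strands were the E-box CACGTG, the M-box TCATGTG and the AP-1 site TGANTCA, and no match in the peaks shown overlaps another. The E-box occurred in 2 of the 15 windows (13.3%) and in 7.15% of all 32851 windows, the M-box in 2 (13.3%) and in 3.77%, and the AP-1 site in 4 (26.7%) and in 7.81%. No chromosome was left out of the 32851 windows, so the sets compared differ in this. Within the bases of the shared peaks themselves, 1 peak held an E-box, 2 held an M-box and 4 held an AP-1 site. The 6 peaks that held a motif are shown with each match in capitals, and the levels of their nearest genes follow.
Plxnc1 peak, chr10:94961387-94961653, plus strand: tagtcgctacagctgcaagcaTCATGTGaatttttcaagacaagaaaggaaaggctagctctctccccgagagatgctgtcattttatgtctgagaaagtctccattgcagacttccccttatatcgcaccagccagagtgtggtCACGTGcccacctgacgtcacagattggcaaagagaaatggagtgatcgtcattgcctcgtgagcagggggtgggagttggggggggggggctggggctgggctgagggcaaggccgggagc
Tsc22d3 peak, chrX:140534383-140534557, minus strand: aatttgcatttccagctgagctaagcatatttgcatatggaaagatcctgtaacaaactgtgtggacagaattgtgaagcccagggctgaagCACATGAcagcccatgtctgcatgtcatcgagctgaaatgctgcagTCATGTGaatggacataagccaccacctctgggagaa
Pim1 peak, chr17:29434653-29434867, plus strand: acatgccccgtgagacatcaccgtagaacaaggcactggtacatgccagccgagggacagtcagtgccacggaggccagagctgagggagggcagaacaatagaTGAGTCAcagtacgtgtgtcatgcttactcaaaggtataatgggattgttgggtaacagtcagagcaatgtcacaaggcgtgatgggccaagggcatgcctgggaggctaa
Map3k20 peak, chr2:72351772-72351921, minus strand: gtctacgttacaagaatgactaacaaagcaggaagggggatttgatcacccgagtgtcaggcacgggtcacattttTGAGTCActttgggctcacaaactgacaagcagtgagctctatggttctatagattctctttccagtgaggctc
Zmiz1 peak, chr14:25379027-25379174, plus strand: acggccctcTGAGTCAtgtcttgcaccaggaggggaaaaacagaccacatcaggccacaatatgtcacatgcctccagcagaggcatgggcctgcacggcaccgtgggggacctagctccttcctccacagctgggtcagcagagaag
4933432I03Rik peak, chr14:103012625-103012861, plus strand: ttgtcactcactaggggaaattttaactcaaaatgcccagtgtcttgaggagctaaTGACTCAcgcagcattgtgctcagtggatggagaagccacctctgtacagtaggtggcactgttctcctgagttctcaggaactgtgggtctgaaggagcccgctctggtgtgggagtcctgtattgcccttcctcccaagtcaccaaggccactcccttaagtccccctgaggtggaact

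Plxnc1, the gene nearest to the peak that held both an E-box and an M-box, encodes a plexin receptor of semaphorins and had 43.9 and 46.3 TPM in MSUc libraries against 44.4 and 50.8 TPM in PBS libraries at 5 h. TPM is a level scaled for transcript length and library total. Its groups overlapped and the gene was not called. Tsc22d3, a glucocorticoid-induced regulator whose peak held 2 M-box matches, had 19.1 and 34.3 TPM with MSUc against 66.6 and 47.9 TPM with PBS, a log2 change of -1.11 ± 0.43 (SE; limma adjusted p = 0.046) that lost its call without 1 of 3 libraries in turn (-0.70 without MSUc replicate 1, -0.87 without PBS replicate 1 and -1.34 without PBS replicate 2). It was also lost under median-of-ratios scaling (-0.86), with no filter on low values and with the compared groups fitted alone. Of the 4 genes whose peaks held an AP-1 site, 4933432I03Rik was too low to be tested and the other 3 rose. Pim1, a serine/threonine kinase, had 252 and 284 TPM with MSUc against 49.4 and 44.8 TPM with PBS (log2 change 2.48 ± 0.12, limma adjusted p = 1.5e-08). Map3k20, a stress kinase that senses stalled ribosomes, had 11.3 and 13 TPM with MSUc against 6.3 and 6.4 TPM with PBS (0.83 ± 0.13). Zmiz1, a transcriptional coactivator, had 202 and 156 TPM with MSUc against 104 and 115 TPM with PBS (0.69 ± 0.15). In these 3 genes the groups did not overlap. Over all nearest genes tested, 45.2% were higher at 5 h. Peaks without a motif in the letters read lay nearest to Cd9, Etv3, Sptlc2 and Tox2, which were higher with MSUc in all 8 experiments. Such peaks also lay nearest to Pim1 and to Alas1, BC022687, Gm14005 and Map6. The last 4 were neither higher nor lower in all 8. The 5 h call of Cd9 in the time course was lost in 5 settings, left-out libraries among them. Of the genes whose peaks held a motif, Pim1 and Map3k20 were higher in all 8 and Tsc22d3 was lower in all 8. Plxnc1 and Zmiz1 were neither. Whether a motif goes with a rise was not tested.

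By the authors' annotation the shared peaks were distal, as were all gained TFEB peaks in the list, so this does not set the shared peaks apart. Every one lay more than 3 kb from the start site to which HOMER had assigned it, with a median of 27.8 kb and a range of 3.004 to 1140 kb, and in the whole list of gained TFEB peaks the lowest such distance was 3.001 kb. The 15 peaks off chromosome 18 that reached a RefSeq promoter window lay at other start sites. They were 201 to 686 bp wide (median 254). Introns held 1114 (50.5%), intergenic sequence 1023 (46.4%), the neighbourhood of transcript ends 32, 3' UTRs 21, exons 11 and non-coding transcripts 6. A distance of 3 to 10 kb was found for 439 (19.9%), 10 to 50 kb for 1085 (49.2%), 50 to 100 kb for 395 (17.9%) and over 100 kb for 288 (13.0%). Outside repeats lay 1737 (78.7%), and 183 were in LTR, 104 in LINE and 101 in SINE elements. The TFEB and DOT1L peaks nearly coincided: the distance between their centres had a median of 18 bp, 88.6% of pairs lay within 50 bp, and a median of 90.0% of the TFEB peak was covered. Just inside the rule were 4 peaks with 1 to 50 bp of overlap, and just outside it 19 gained TFEB peaks with a gap of under 100 bp to a gained DOT1L peak (the smallest gap was 4 bp).

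A gained TFE3 peak overlapped 869 (39.4%) of the shared peaks. TFE3 ChIP-seq had a single MSUc library, which limits every split by TFE3. Of the gained TFEB peaks without DOT1L, 983 overlapped a gained TFE3 peak and 2477 did not. A gained H3K27ac region overlapped 607 (27.5%) of the shared peaks. That compares with 18.8% of all gained TFEB peaks and 11.0% of those that overlapped neither DOT1L nor TFE3. A gained H3K4me3 region overlapped 320 (14.5%), against 10.0% of all gained TFEB peaks. Of the shared peaks 2 overlapped a region of reduced H3K27ac, and 0 overlapped one of reduced H3K4me3 or a reduced DOT1L peak. Among shared peaks with TFE3, 35.6% overlapped gained H3K27ac, and among those without TFE3 22.3%. Neighbouring peaks share a locus and these shares were not tested. Seen from the histone lists, 701 of 2081 gained H3K27ac regions (33.7%) and 385 of 1168 gained H3K4me3 regions (33.0%) held a shared peak, against 4 of 1838 reduced H3K27ac regions (0.218%) and 0 of 868 reduced H3K4me3 regions. In the authors' deposited table the gained H3K27ac regions with a shared peak had a median log2 change of 1.61 (1.00 to 3.02), against 1.48 over all gained regions.

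The 2207 peaks had 1484 nearest genes, 1046 with 1 shared peak, 261 with 2, 110 with 3 and 67 with 4 or more. The Ras-association gene Rassf8 had 7 peaks, all intergenic and upstream of its start, on chromosome 6 between 145714166 and 145803096. Hk1, the hexokinase that traps glucose in the cell, had 6, all in its introns 4 to 6. The ubiquitin ligase gene Nedd4l, the scaffold gene Frmd4a and Zfpm1, a cofactor of GATA factors, also had 6. Tnfaip3, whose product A20 restrains NF-kB signalling, had 4 intergenic peaks 15.4 to 65.0 kb from its start, and the stress kinase gene Plk2 had 3 at 147 to 174 kb. Dot1l itself was a nearest gene. Its peaks lay in intron 1 (chr10:80758739-80758993) and intron 7 (chr10:80774211-80774458), and both overlapped gained TFE3 peaks and gained H3K27ac regions. The authors' deposited table lists H3K27ac regions around these Dot1l peaks with log2 changes of 1.45, 1.61, 2.04 and 2.51 (adjusted p of the last 2.1e-18). No gene of the MiT/TFE family was a nearest gene.

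After 5 h, genes nearest to the shared peaks were more often higher and less often lower with MSUc than genes at large. All 1484 genes were in the expression tables, and 1079 reached the minimum of 1 TPM in 2 libraries and were tested; of the other 405, 249 were protein-coding and 150 non-coding. A gene is called where its limma adjusted p, over all genes tested, was under 0.05. Of the 1079 genes, 488 (45.2%) were higher, where 16.4% of all genes tested were, and 173 (16.0%) were lower, where 32.9% of all genes were. Their median log2 change was 0.34, against -0.23 for all genes. The tables fix the total of each library, and scaling instead by the median ratio of genes (median-of-ratios) moved the median of all genes by 0.22; under that scaling 612 of the nearest genes were higher and 105 lower, against 24.9% and 20.5% of all genes. No test was made of these shares, since genes are not replicates. Nothing in the labels says that the libraries of a group came from separate cultures or animals, so p-values measure only the spread between these libraries. The macrophage markers Csf1r, Adgre1, Cd68, Mertk, Lyz2, Itgam, Fcgr1 and C1qa all averaged at least 1 TPM in both groups, and summed to 13036 to 14312 TPM with MSUc against 19459 to 26049 TPM with PBS. In bulk RNA, fewer cells of a type and less RNA per cell cannot be told apart.

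**Figure D1:**
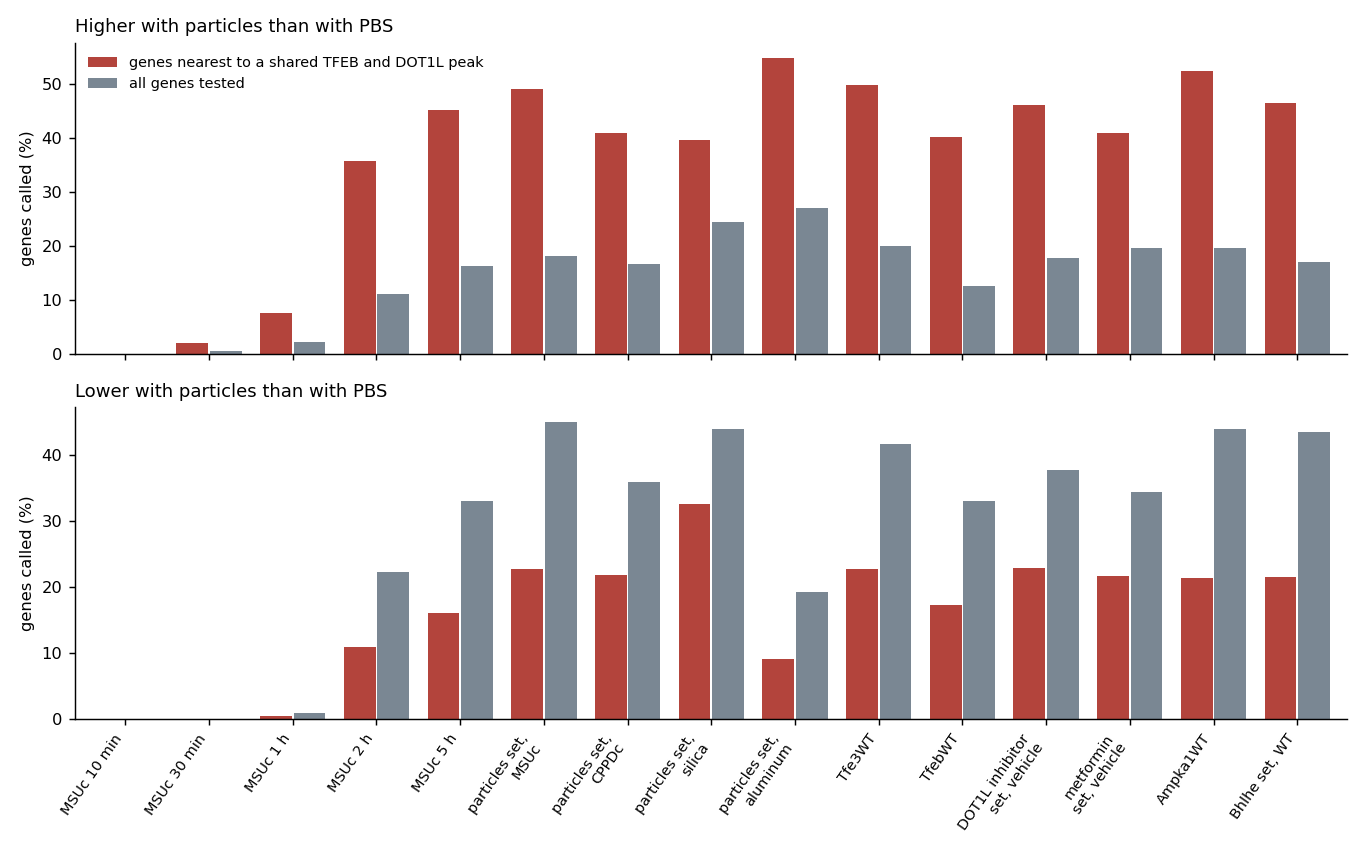
Percent of genes called higher (upper panel) and lower (lower panel) with particles than with PBS in 15 comparisons, for genes nearest to a shared TFEB and DOT1L peak (red) and for all genes tested (grey). At 5 h 45.2% of the nearest genes and 16.4% of all genes were higher, and 16.0% and 32.9% were lower.

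The share of genes called higher grew with the number of shared peaks and with their closeness to the start. Of genes with 1 shared peak 38.9% of 754 were higher and 19.1% lower; with 2 peaks 56.0% of 193 and 11.9%; with 3 peaks 60.0% of 80 and 7.5%; and with 4 or more peaks 39 of 52 (75.0%) were higher and 0 were lower. With the closest shared peak under 10 kb from the start, 55.3% of 309 genes were higher and 11.7% lower, against 28.3% and 33.3% of 60 genes whose closest shared peak lay beyond 100 kb. Genes with a shared peak in gained H3K27ac were higher in 55.2% of 357 cases and lower in 8.40%, against 40.3% and 19.8% of the 722 without. A TFE3 overlap made a smaller difference, with 49.3% higher of 537 genes with TFE3 and 41.1% of 542 without. Genes that were nearest to no shared peak but to another gained peak had lower shares: 28.2% higher of 372 near TFEB and TFE3, 26.2% of 896 near TFEB alone and 27.7% of 718 near DOT1L alone, and 25.1% to 25.5% were lower in each. Of 1424 genes near a reduced DOT1L peak 13.1% were higher and 42.1% lower. The gap was also there within bands of level: among genes of up to 10 TPM 41% of nearest and 9.57% of other genes were higher, and above 50 TPM 47.7% and 20.2%.

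**Figure D2:**
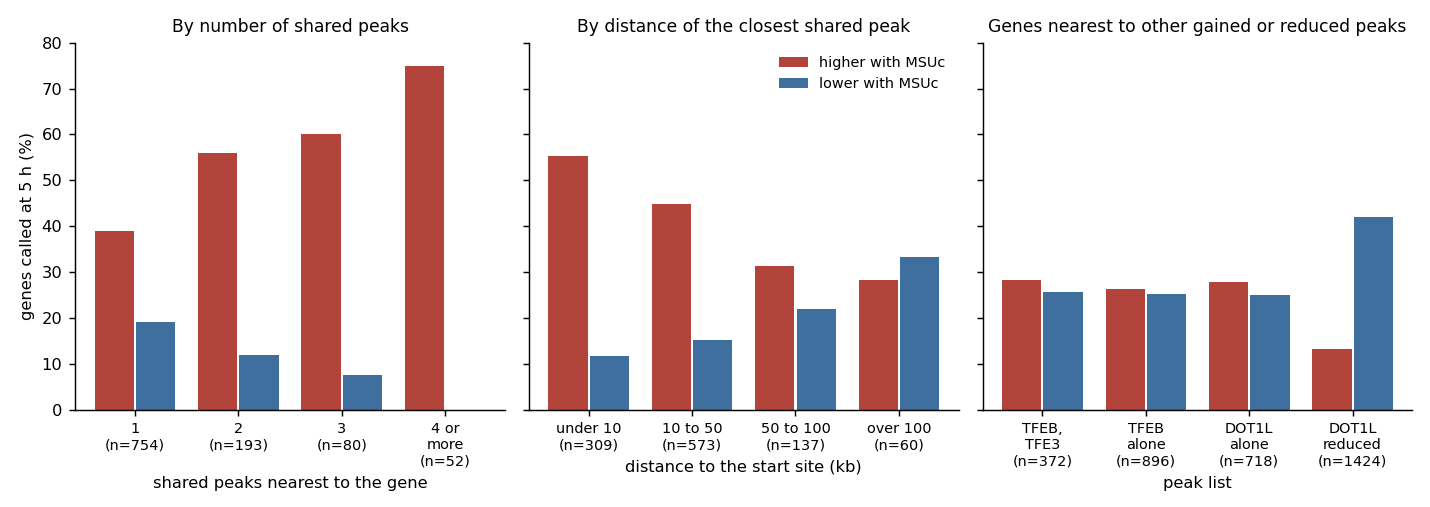
Percent of genes called higher (red) and lower (blue) with MSUc than with PBS at 5 h, by the number of shared peaks, by the distance of the closest shared peak, and for genes nearest to other peak lists; n is the number of genes tested. With 4 or more shared peaks 75.0% were higher and 0% lower.

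The 10 largest rises at 5 h were of 3.72 (Dcbld2) to 5.04 (Slc7a11) on the log2 scale. Slc7a11 encodes the cystine transporter that feeds glutathione synthesis, and its peaks lie in its intron 6 (chr3:50390408-50390612 and chr3:50402494-50402771). It had 63.4 and 31.9 TPM in MSUc libraries against 0.295 and 0.512 TPM in PBS libraries (log2 change 5.04 ± 0.28, limma adjusted p = 3.6e-08). Changes are on the log2(TPM + 1) scale, which understates the change of low genes. Il1rn, the interleukin-1 receptor antagonist, has a peak in intron 1 of a longer transcript (chr2:24341499-24341788) and one downstream (chr2:24353134-24353401), both with gained TFE3 and H3K27ac. It had 648 and 1011 TPM with MSUc against 49.9 and 11.7 TPM with PBS (5.00 ± 1.03, adjusted p = 0.0015 by limma), with a wide gap between the PBS libraries. Flrt3, a cell adhesion protein, had 69.5 and 97.9 TPM with MSUc against 2.27 and 1.33 TPM with PBS (4.92 ± 0.35). Its 5 peaks lie 112 to 175 kb from its start, in introns of another gene. Edn1, the precursor of the vasoconstrictor endothelin, had 18.3 and 16.8 TPM with MSUc against 0.077 and 0 TPM with PBS. The AP-1 subunit gene Fosb rose by 4.16 ± 0.25, the lipid phosphatase gene Plpp3 by 4.03 ± 0.25, the MAP kinase phosphatase gene Dusp10 by 3.82 ± 0.19 and the activin subunit gene Inhba by 3.81 ± 0.36. Chst11, a chondroitin sulfotransferase (3.86 ± 0.35), and the transmembrane protein gene Dcbld2 (3.72 ± 0.20) complete the 10 largest rises, and in all 10 the groups did not overlap. In all, 307 nearest genes changed by at least 1 on the log2 scale at 5 TPM or more in the higher group and without overlap: 262 (24.3%) upward and 45 (4.17%) downward, where 5.49% and 7% of all genes did.

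The largest falls were at genes with a single shared peak. Sesn1 encodes sestrin 1, which restrains mTORC1 when amino acids are scarce, and has its peak in intron 1 (chr10:41830530-41830744). It had 9.12 and 6.77 TPM with MSUc against 79.1 and 117 TPM with PBS (-3.45 ± 0.36, limma adjusted p = 7e-06). Fgd2, an activator of the small GTPase Cdc42, had 6.97 and 8.4 TPM with MSUc against 65.3 and 64.7 TPM with PBS (-2.93 ± 0.09). Engase, a cytosolic enzyme that removes N-glycans, had 2.48 and 2.47 TPM with MSUc against 24.9 and 24.9 TPM with PBS (-2.90 ± 0.13). Replicates of Fgd2 and Engase lay close together, those of Sesn1 lay wider apart, and in each of these genes the groups were far apart. Fam105a (-2.40 ± 0.20), Rnf150 (-2.31), the oxysterol receptor gene Gpr183 (-2.25), the glycosyltransferase gene B3galnt1 (-2.18), the translation inhibitor gene Pdcd4 (-1.76), the sialyltransferase gene St6gal1 (-1.74) and Frmd4b (-1.71) followed. The shared peak of Rnf150 overlapped a region with a gain of H3K27ac of 1.05 (log2) in the authors' deposited table, while its transcript fell.

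**Figure D3:**
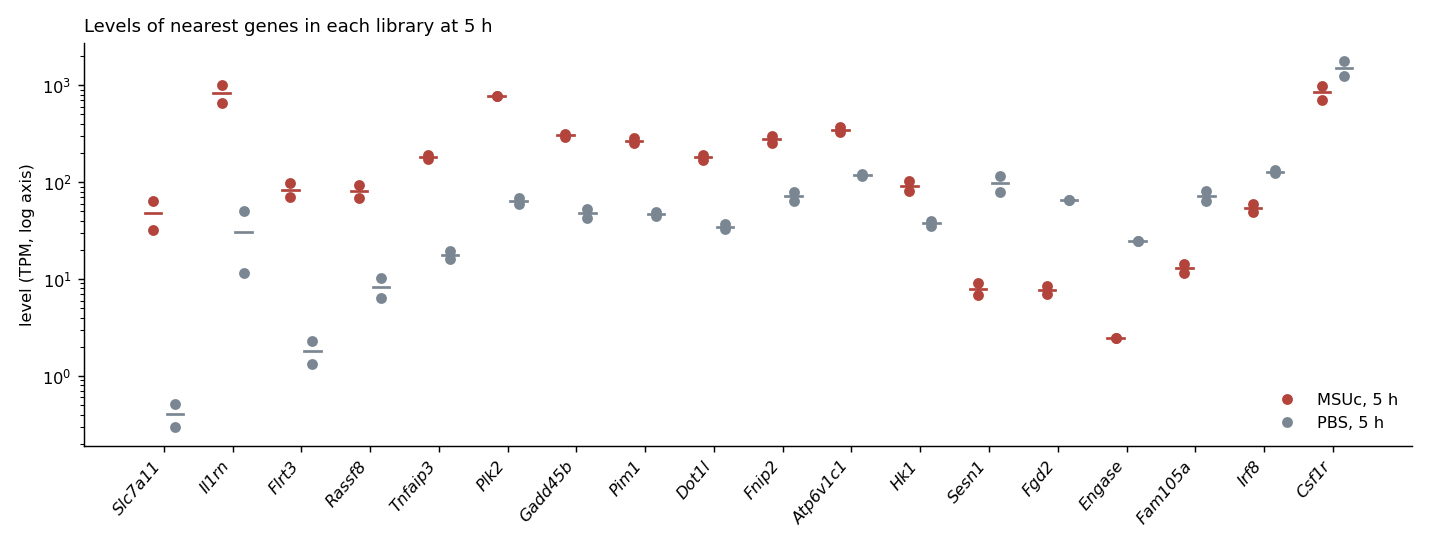
Level in TPM (log axis) of 18 nearest genes in each library at 5 h, MSUc in red left of PBS in grey; bars are the means of 2 libraries. Slc7a11 to Hk1 were higher with MSUc and Sesn1 to Csf1r lower.

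Among the genes with the most shared peaks, Rassf8 had 92.9 and 68.2 TPM with MSUc against 6.44 and 10.2 TPM with PBS (3.15 ± 0.30), and the authors' deposited table gives H3K27ac gains of 1.32, 1.50 and 2.25 (log2) at its peaks. Nedd4l rose by 2.07 ± 0.15, Frmd4a by 1.44 ± 0.13 and Hk1 by 1.26 ± 0.18. Zfpm1 had 6.94 and 4.25 TPM with MSUc against 5.93 and 7.29 TPM with PBS and was not called. The other 4 genes with 6 or 7 peaks (Pabpc2, 4930529L06Rik, 1700016G22Rik and 4933411E08Rik) were too low to be tested.

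Read by the lists of pathway genes used here, the nearest genes held 10 of 12 inflammatory mediators and 8 of 8 immediate early genes that rose and 0 that fell. Osm, the cytokine oncostatin M, had 66.2 and 111 TPM with MSUc against 8.53 and 5.37 TPM with PBS (3.47 ± 0.27). The chemokine gene Ccl3 rose by 2.96 ± 0.41, the macrophage growth factor gene Csf1 by 3.64 ± 0.41 and the anti-inflammatory cytokine gene Il10 by 2.11 ± 0.39. Tnfaip3 had 174 and 190 TPM with MSUc against 16.1 and 19.5 TPM with PBS (3.29 ± 0.15). Among immediate early genes Plk2 had 777 and 765 TPM with MSUc against 60 and 68.6 TPM with PBS (3.57 ± 0.13), and Gadd45b, a stress-induced regulator of MAP kinases with 5 shared peaks, had 291 and 314 TPM against 52.9 and 42.8 TPM with PBS (2.64 ± 0.21). The stress factor gene Atf3 (1.46) and Klf6 (1.19) also rose. Over the whole lists 25 of 29 inflammatory mediators and 26 of 32 immediate early genes rose.

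Genes of metabolism rose as well. All 6 glycolytic nearest genes rose, in a list where 14 of 19 did and 1 fell. The glucose transporter gene Slc2a1 had 185 and 167 TPM with MSUc against 18.7 and 21.9 TPM with PBS (3.06 ± 0.12). Pfkfb3, whose product makes the activator of phosphofructokinase, rose by 1.75, Pfkp by 1.40 and the lactate dehydrogenase gene Ldha by 0.94. Of 9 nearest genes of lipid handling 7 rose and 0 fell, where 11 of the list's 20 rose and 3 fell: the scavenger receptor gene Cd36 by 1.37, Spp1 (osteopontin) by 1.42, the lipid-sensing nuclear receptor gene Pparg by 1.27 and Acsl1, which activates fatty acids, by 1.03. All 3 nearest genes among the targets of the antioxidant factor NRF2 rose, in a list of 20 where 12 rose: Slc7a11, the peroxiredoxin gene Prdx1 (1.95 ± 0.26) and the thioredoxin gene Txn1 (0.69, which lost its call without MSUc or PBS replicate 1, at 0.59 and 0.56).

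The lysosomal and autophagy lists gave fewer nearest genes. The 3 subunits of the proton pump V-ATPase rose, as 14 of 17 of the list did: Atp6v1c1 had 327 and 368 TPM with MSUc against 123 and 115 TPM with PBS (1.54 ± 0.11), Atp6v1a rose by 0.59 and Atp6v1g1 by 0.49. Of 5 lysosomal hydrolases and membrane proteins 2 rose and 0 fell, where 8 of the list's 46 rose and 14 fell. Scpep1, a serine carboxypeptidase, rose by 0.57, and the chloride transporter gene Clcn7 by 0.96 ± 0.30 (0.74 without PBS replicate 2 and 0.90 without MSUc replicate 2, both without a call). Gusb had 360 and 387 TPM with MSUc against 360 and 373 TPM with PBS, and Psap, the precursor of the saposins, had 3957 and 4484 TPM with MSUc against 3998 and 3022 TPM with PBS; neither was called. Of 5 autophagy genes Tax1bp1, a cargo receptor, rose (1.28), Atg7 had 29.2 and 30.2 TPM with MSUc against 38.3 and 33 TPM with PBS, and Atg13 had 42.3 and 49.1 TPM against 38.4 and 31.7 TPM with PBS; these were not called. Over that list 8 of 34 rose and 9 fell.

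Regulators of the pathway itself were among the nearest genes. Fnip1 and Fnip2 encode partners of folliculin, which links lysosomal amino acid signals to TFEB and TFE3. Fnip2 had 300 and 251 TPM with MSUc against 63.2 and 79.6 TPM with PBS (1.94 ± 0.16), Fnip1 had 80.1 and 81.6 TPM against 33.5 and 38.7 TPM with PBS (1.15 ± 0.08), and Ddit4, an inhibitor of mTORC1, rose by 1.17. With Sesn1 lower, 3 of 4 nearest genes of the folliculin, Rag and mTORC1 list rose and 1 fell, where 7 of the list's 20 rose and 9 fell. All 3 nearest genes of DOT1L and elongation factors rose, in a list of 17 where 8 rose and 2 fell. Dot1l had 191 and 170 TPM with MSUc against 32.7 and 36.8 TPM with PBS (2.34 ± 0.12, limma adjusted p = 2.7e-08), the elongation scaffold gene Aff1 rose by 1.09 and Ell by 0.48. Tfeb itself had 42.3 and 33.5 TPM with MSUc against 42.3 and 44 TPM with PBS, and Tfe3 had 109 and 90.7 TPM against 93.9 and 102 TPM with PBS, neither called. All 3 macrophage identity genes fell: Irf8, a factor of the myeloid lineage, had 48.7 and 60.1 TPM with MSUc against 133 and 124 TPM with PBS (-1.23 ± 0.13), Adgre1 (F4/80) fell by 0.61, and the M-CSF receptor gene Csf1r had 979.6 and 704 TPM against 1257 and 1776 TPM with PBS (-0.85 ± 0.32, adjusted p = 0.045 by limma). Csf1r lost its call without MSUc replicate 2 (-0.61), without PBS replicate 2 (-0.60), under median-of-ratios scaling (-0.59), with no filter and with the compared groups fitted alone. Of that list's 20 genes 11 fell and 1 rose.

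In time, the rises came in steps. At 10 min 0 of the 1079 genes were called by limma in either direction (17 had an unadjusted p under 0.05), where 0.0486% of all genes were higher and 0.0081% lower. At 30 min 22 (2.04%) were higher and 0 lower, where 0.68% of all genes were higher and 0% lower. At 1 h 82 (7.60%) were higher and 4 (0.371%) lower, where 2.33% and 0.947% of all genes were. At 2 h 385 (35.7%) were higher and 117 (10.8%) lower, where 11.2% and 22.3% of all genes were; median-of-ratios scaling gave 469 higher and 58 lower, against 16.5% and 12.1%. The counts of the earlier times depend on the libraries fitted: without PBS replicate 1 the 30 min count was 12, and the 1 h count, 86 in both directions, was 54. With the compared groups fitted alone the counts in both directions were 0 at 30 min, 14 at 1 h and 214 at 2 h. A block with crossed replicate numbers, chosen after seeing the data, gave 39 at 30 min and 184 at 1 h. All 22 genes higher at 30 min were higher at 5 h, as were 81 of the 82 at 1 h and 351 of the 385 at 2 h, and 137 genes were first called at 5 h. Over all genes 75 of 84 (89.3%) higher at 30 min, 258 of 288 (89.6%) at 1 h and 1223 of 1379 (88.7%) at 2 h were higher at 5 h.

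Osm, Fosb, Plk2 and Tnfaip3 were among the 22 genes higher at 30 min. Osm had 70.6 and 90.1 TPM with MSUc against 6.63 and 7.3 TPM with PBS at 30 min (3.34 ± 0.27, limma adjusted p = 2.2e-05). At 10 min its values were 13.7 and 19.9 TPM with MSUc against 5.93 and 7.38 TPM with PBS, not called. Fosb had 15.4 and 24.5 TPM with MSUc against 0.334 and 0.765 TPM with PBS at 30 min, and its change grew to 4.95 at 1 h. Plk2 changed by 1.83 at 30 min, 2.81 at 1 h, 3.45 at 2 h and 3.57 at 5 h, and Tnfaip3 by 1.75, 2.70, 3.48 and 3.29. Dot1l came later. At 30 min it had 42.5 and 35.7 TPM with MSUc against 33.5 and 36 TPM with PBS, not called; at 1 h it had 76.1 and 61.5 TPM against 34.7 and 35.4 TPM with PBS (0.94 ± 0.12, adjusted p = 0.00052 by limma). The calls of Osm, Fosb, Plk2 and Tnfaip3 at 30 min and of Dot1l at 1 h were lost with the compared groups fitted alone, at the same values. At 2 h its change was 2.12. Slc7a11 and Rassf8 were first called at 2 h, at 4.16 and 1.91, and Sesn1 fell at 2 h to 16.7 and 12.5 TPM with MSUc, against 81.7 and 115 TPM with PBS.

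**Figure D4:**
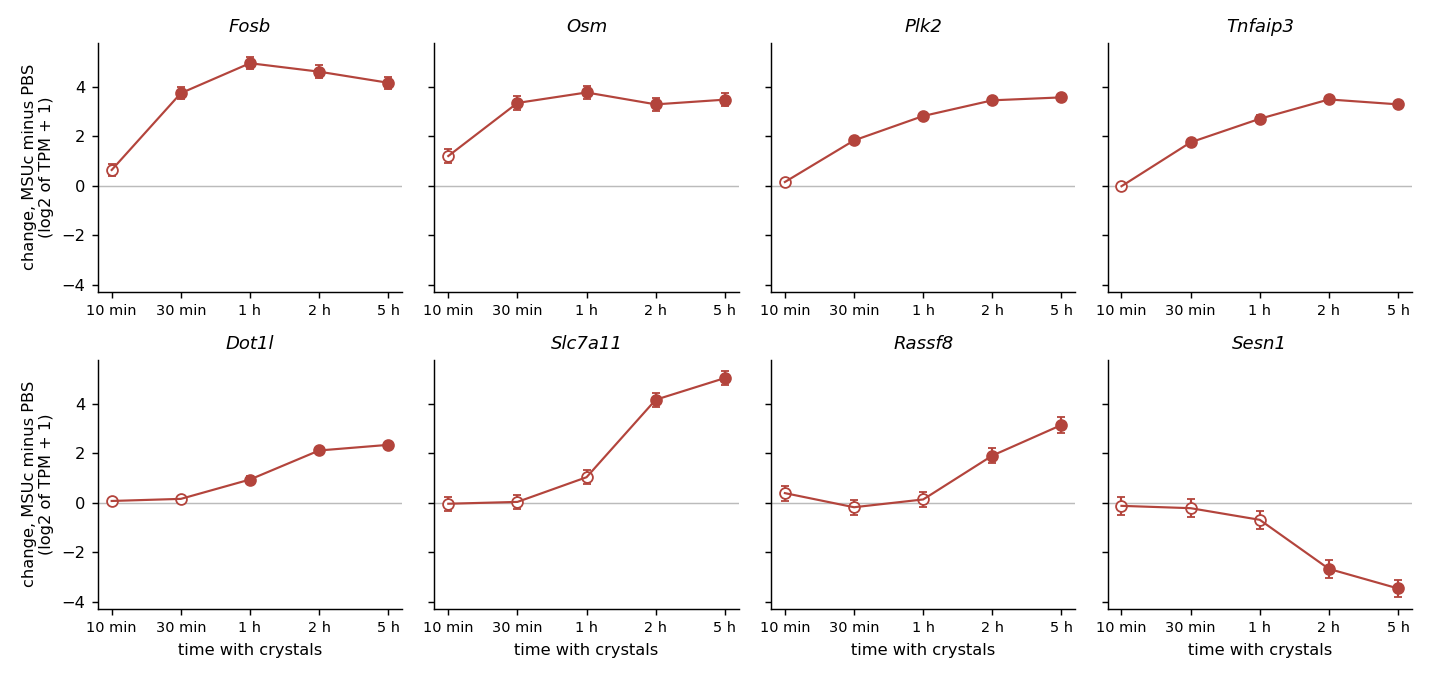
Log2 change ± SE, MSUc minus PBS, at 5 times for 8 nearest genes; filled points have a limma adjusted p under 0.05. Fosb and Osm were called from 30 min, Dot1l from 1 h and Slc7a11, Rassf8 and Sesn1 from 2 h.

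The same direction of shares was seen with every particle. In the particle set 1074 nearest genes were tested, and the 4 particles share their PBS libraries, so the comparisons are not independent. With MSUc 526 (49.0%) were higher and 243 (22.6%) lower, where 18.1% and 44.9% of all genes were; median-of-ratios scaling gave 657 and 136, against 28.4% and 27.4% of all genes. With CPPDc 440 (41%) were higher and 234 (21.8%) lower, where 16.6% and 35.8% of all genes were; the other scaling gave 541 and 160, against 24.8% and 22.1%. With silica 426 (39.7%) were higher and 350 (32.6%) lower, where 24.4% and 43.9% of all genes were; the other scaling gave 564 and 225, against 36.1% and 31.1%. The labels list 2 silica and 3 aluminum samples, while the table holds 3 silica and 2 aluminum columns; the unmatched silica column was left out, and whether a column carries the wrong name was not tested. With aluminum hydroxide 589 (54.8%) were higher and 97 (9.03%) lower, where 27.1% and 19.2% of all genes were. In the aluminum comparison the change also ran with transcript length across genes (Spearman 0.41 over the nearest genes and 0.49 over all, a description across genes), and within length bands 23.5%, 51.3% and 75.1% of nearest genes were higher (up to 2, 2 to 4 and over 4 kb), against 7.69%, 23.1% and 49.7% of other genes. Macrophage markers (8 of 8 at 1 TPM or more in each group) summed to 18966 to 20680.5 TPM with MSUc, 19755 to 22092 TPM with CPPDc, 34946 to 39600.2 TPM with silica and 16748 to 17148 TPM with aluminum hydroxide, against 29289.5 to 31609.5 TPM with PBS. With silica neutrophil markers summed to 257 to 357 TPM (4 of 7) against 47.5 to 111 TPM with PBS (3 of 7), and stromal markers to 83.0 to 120.1 TPM (5 of 5) against 31.0 to 79.8 TPM (4 of 5). With aluminum hydroxide erythroid and megakaryocyte markers, led by Pf4, summed to 26.7 to 41.01 TPM against 88.0 to 138 TPM with PBS (2 of 5 in both), and endothelial markers to 20.7 to 29.3 TPM against 7.82 to 10.0 TPM (2 of 3 in both). The part of these lists in the results was not tested.

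Single genes differed more by particle. Dot1l had 130, 160 and 145 TPM with MSUc (2.39 ± 0.14), 54.3, 64.9 and 68.4 TPM with CPPDc (1.19 ± 0.14), 53.8 and 35.3 TPM with silica (0.69 ± 0.16) and 109 and 128 TPM with aluminum hydroxide (2.10 ± 0.16), against 27.1, 27.1 and 25.9 TPM with PBS. Every particle library lay above every PBS library. Slc7a11 changed by 5.63 with MSUc, 5.60 with CPPDc, 2.94 with silica and 2.93 with aluminum hydroxide, and Rassf8 by 3.50, 2.21, 1.21 and 2.19. Tnfaip3 changed by 3.25, 2.86, 2.03 and 2.28 in the same order, and Sesn1 by -3.46, -2.33, -1.23 and -1.20. Differences between particles were not tested.

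The response to MSUc recurred in the other experiments. In Tfe3WT cells 542 of 1089 nearest genes (49.8%) were higher and 247 (22.7%) lower, where 20% and 41.6% of all genes were; median-of-ratios scaling gave 644 and 166, against 29.2% and 28% of all genes. In TfebWT cells 428 of 1066 (40.2%) were higher and 184 (17.3%) lower, where 12.6% and 32.9% of all genes were; that scaling gave 545 and 91, against 20.1% and 16.5%. In vehicle cells of the inhibitor experiment 497 of 1080 (46.0%) were higher and 246 (22.8%) lower, where 17.8% and 37.7% of all genes were; that scaling gave 581 and 152, against 24.7% and 25.6%. In vehicle cells of the metformin experiment 442 of 1083 (40.8%) were higher and 235 (21.7%) lower, where 19.6% and 34.3% of all genes were. In Ampka1WT cells 556 of 1061 (52.4%) were higher and 227 (21.4%) lower, where 19.7% and 43.9% of all genes were; that scaling gave 669 and 134, against 30.4% and 28.2%. In WT cells of the Bhlhe experiment 497 of 1071 (46.4%) were higher and 230 (21.5%) lower, where 17.1% and 43.4% of all genes were; that scaling gave 641 and 118, against 27.6% and 25.3%. Of 1001 nearest genes tested in all 8 experiments, 282 (28.2%) were higher with MSUc in all 8 and 72 (7.19%) lower in all 8, against 7.72% and 16.8% of 11186 genes. Dot1l was higher in all 8. Its widest change was in Ampka1WT cells, with 136, 116 and 125 TPM with MSUc against 6.74, 6.85 and 6.77 TPM with PBS (4.03 ± 0.18), and its change was 1.78 in TfebWT, 1.81 in Bhlhe WT, 1.88 in Tfe3WT, 2.13 in the metformin vehicle and 2.37 in the inhibitor vehicle cells.

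With the DOT1L inhibitor and MSUc more of the nearest genes were lower than higher. The SGC0946 MSUc libraries held 11.5, 12.2 and 8.64 M reads, and the vehicle MSUc libraries 6.63, 2.83 and 3.54 M. Depth moved with the drug here, and its part in the result was not tested. With SGC0946 and MSUc, against vehicle and MSUc, 205 of 1080 (19.0%) were lower, where 9.24% of all genes were, and 74 (6.85%) were higher, where 7.39% of all genes were. Median-of-ratios scaling gave 175 lower and 91 higher, against 7.39% and 8.70% of all genes. Genes near other gained peaks were lower in 17.3% (TFEB with TFE3), 15.1% (TFEB alone) and 16.2% (DOT1L alone) of cases, and genes near a reduced DOT1L peak in 11.5%. Without SGC0946 MSUc replicate 1 or 3 the total of 279 calls was 185 or 179, and with the compared groups fitted alone 183. Erythroid and megakaryocyte markers summed to 37.2 to 59.5 TPM with SGC0946 and MSUc (1 of 5 at 1 TPM or more) against 13.35 to 31.7 TPM with vehicle and MSUc (2 of 5), and their part in the result was not tested. Of the 484 tested nearest genes that rose with MSUc at 5 h, 107 (22.1%) were lower with SGC0946 and 37 higher. Of 1519 other genes that rose, 14.1% were lower. The share was similar for nearest genes that fell with MSUc at 5 h, with 36 of 172 (20.9%) lower with SGC0946 and 8 higher. Of 3838 other genes that fell, 330 were lower. The change with SGC0946 ran with transcript length (Spearman -0.49 over the nearest genes, -0.45 over all, across genes), and the nearest genes had longer transcripts, with a median of 3441 bases against 2717.5 over all genes tested. Within bands of length 3.81% of nearest and 2.34% of other genes were lower up to 2 kb, 11.2% and 6.93% from 2 to 4 kb, and 34.2% and 18.5% above 4 kb. Transcript length moves with both the nearest genes and the response, and its part in the result was not tested beyond these bands. The change with SGC0946 in PBS also ran with transcript length (Spearman -0.34 over the nearest genes, -0.33 over all). So did the difference of the MSUc response with the inhibitor (-0.30 and -0.25).

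**Figure D5:**
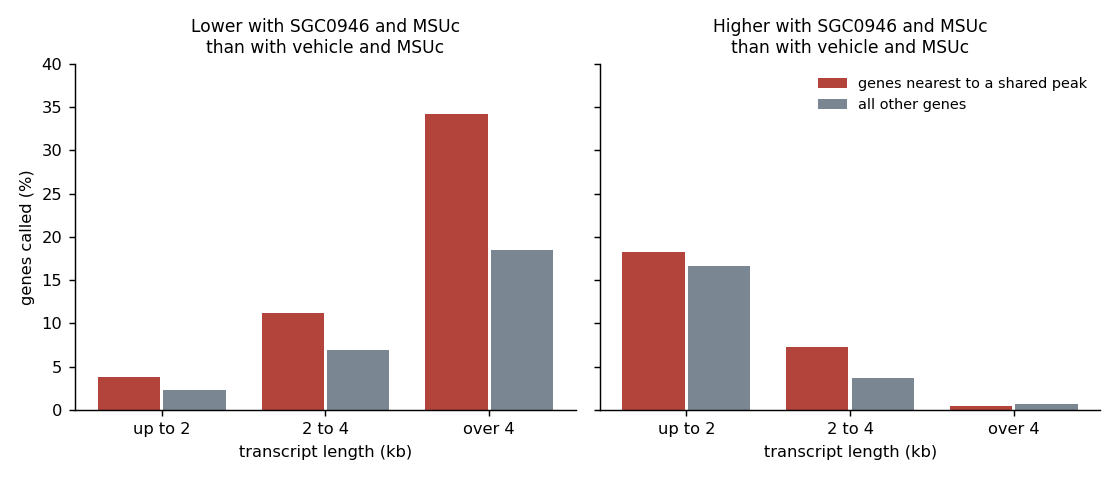
Percent of genes called lower (left) and higher (right) with SGC0946 and MSUc than with vehicle and MSUc, by transcript length, for genes nearest to a shared peak (red) and all other genes (grey). Above 4 kb 34.2% of the nearest and 18.5% of the other genes were lower.

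Psap, Cd180, Soat1, Slc29a3 and Gpnmb were the nearest genes with the smallest p among those lower. Psap had 5470.0, 5347 and 5292 TPM with SGC0946 and MSUc against 7479, 7219 and 7347 TPM with vehicle and MSUc (-0.45 ± 0.04, limma adjusted p = 9.7e-05). Cd180, a Toll-like receptor relative with 3 shared peaks, had 396, 403 and 381 TPM against 629, 677 and 645 TPM with vehicle (-0.72 ± 0.06). Soat1, which esterifies cholesterol, had 208, 215 and 202 TPM against 295, 305 and 317 TPM with vehicle (-0.55). The lysosomal nucleoside transporter gene Slc29a3 fell by 0.86 and the glycoprotein gene Gpnmb by 0.52. Dot1l itself had 158, 160 and 150 TPM against 215, 242 and 215 TPM with vehicle (-0.52 ± 0.07, adjusted p = 0.0013 by limma), and Il1rn fell by 0.30. Upward, Ybx1, which binds RNA, had 253, 249 and 254 TPM with SGC0946 against 156, 147 and 145 TPM with vehicle (0.75), Gadd45b had 352, 352 and 359 TPM against 236, 226 and 237 TPM (0.60 ± 0.05), and Flrt3 had 54.8, 58.4 and 59.7 TPM against 37.7, 32.2 and 35.7 TPM (0.70). The call of Flrt3 was lost with a pseudocount of 0.1 (0.71) and without SGC0946 MSUc replicate 3 (0.67), and that of Il1rn without SGC0946 MSUc replicate 2 (-0.26). The neuropeptide gene Npy (0.78), Spp1 (0.45) and the ribosomal protein gene Rplp1 (1.10), which has near copies in the genome and is uncertain, were also higher. Slc7a11, Rassf8, Tnfaip3, Plk2, Osm and Sesn1 were not called.

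In PBS the inhibitor moved few nearest genes: 9 were higher and 7 lower, where 0.438% and 0.235% of all genes were, and median-of-ratios scaling gave 8 and 4, against 0.3% and 0.203%. These calls are fragile, since without 1 library in turn the total of 16 was 0 to 6, and with the compared groups fitted alone it was 0. Mmp12, the macrophage elastase, had 473 and 466 TPM with SGC0946 and PBS against 335, 329 and 328 TPM with vehicle and PBS (0.50), the collagenase gene Mmp13 differed by 1.09, and Ago2, of the microRNA machinery, by -0.50. The test of whether the MSUc response differed with the inhibitor called 3 nearest genes upward and 0 downward, where 0.0325% and 0% of all genes were. They were Gadd45b (0.74 ± 0.08, adjusted p = 0.015 by limma), Ybx1 (0.62 ± 0.07) and Rplp1 (0.77 ± 0.10). Without 1 library in turn this count was 0 to 9.

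The Tfe3 experiment gave a smaller set. Tfe3 itself had 87.3, 84.9 and 85 TPM in the MSUc libraries labelled Tfe3KO against 83.3, 79.7 and 83.1 TPM in those labelled Tfe3WT, so the transcript does not check the label; which part of the gene was deleted is not given in the sources used here. Of 1089 nearest genes 119 (10.9%) were lower and 84 (7.71%) higher in libraries labelled Tfe3KO with MSUc than in Tfe3WT with MSUc, where 6.63% and 4.1% of all genes were; with the compared groups fitted alone the total of 203 was 127. Median-of-ratios scaling gave 107 lower and 102 higher, against 6.17% and 4.95% of all genes, so the balance of directions depends on the scaling. Amz1, a peptidase, had 7.68, 6.97 and 5.41 TPM in those labelled Tfe3KO against 22.5, 30.4 and 27.8 TPM in Tfe3WT (-1.86), and Ankrd12 had 7.66, 6.83 and 6.73 TPM against 22, 19.5 and 18.6 TPM (-1.38). Scpep1 had 254, 224 and 238 TPM against 373, 370 and 372 TPM in Tfe3WT (-0.64), and Pfkfb3 had 28.9, 29.9 and 32.5 TPM against 57, 54.7 and 54 TPM (-0.84). Rassf8 had 55.2, 45.2 and 45.8 TPM against 69.4, 79.9 and 85.6 TPM in Tfe3WT (-0.67 ± 0.15). In each of these 5 genes the groups did not overlap. Dot1l had 172, 151 and 167 TPM against 130, 143 and 127 TPM in Tfe3WT (0.29 ± 0.09, adjusted p = 0.04 by limma), a call that was lost without some single libraries, with no filter and with the compared groups fitted alone, and Sdc1 (0.62), Ptafr (0.60), Myof (0.57), Akap13 (0.50) and Anpep (0.41) were also higher. Neutrophil markers summed to 290 to 446 TPM in libraries labelled Tfe3KO with MSUc (6 of 7 at 1 TPM or more) against 522 to 687 TPM in Tfe3WT with MSUc (6 of 7), and their part in these differences was not tested. The test of whether the MSUc response differed called 12 nearest genes upward and 38 downward, where 0.414% and 1.31% of all genes were. With the compared groups fitted alone the total of 50 was 21, and without single libraries it was 26 to 71: 26 without Tfe3KO MSUc replicate 2, 33 without its replicate 3, 33 without Tfe3KO PBS replicate 2, 29 without its replicate 3 and 28 without Tfe3WT MSUc replicate 2.

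In Tfeb-Tg cells Tfeb had 201, 299 and 240 TPM with MSUc against 28.9, 30.7 and 25.5 TPM in TfebWT cells with MSUc (3.06 ± 0.13). Of 1066 nearest genes 56 (5.25%) were higher and 44 (4.13%) lower in Tfeb-Tg than in TfebWT cells with MSUc, where 2.04% and 1.43% of all genes were. Cdkn1c, an inhibitor of cyclin-dependent kinases, had 341, 413 and 426 TPM in Tfeb-Tg against 101, 102 and 109 TPM in TfebWT cells (1.90). Kit, the stem cell factor receptor, had 28.6, 29.3 and 26.2 TPM against 6.49, 7.48 and 7.46 TPM (1.83), and Arhgef3, a gene with 4 shared peaks, had 21.7, 23.3 and 22.9 TPM against 5.08, 7.09 and 6.39 TPM (1.73). Plpp3 had 62.3, 63.2 and 62 TPM against 27.5, 26.6 and 28.5 TPM in TfebWT cells (1.16). Downward, Fosl2, an AP-1 subunit, had 30.8, 28.9 and 25.4 TPM in Tfeb-Tg against 49.3, 49 and 50.4 TPM in TfebWT cells (-0.79), Olfml3 fell by 1.44 and Mmp12 by 0.64. Dot1l had 107, 132 and 104 TPM in Tfeb-Tg against 144, 131 and 145 TPM in TfebWT cells and was not called. Kit is also a mast cell marker; the other 4 markers of that list averaged under 1 TPM in both groups. Endothelial markers, led by Kdr, summed to 32.9 to 35.5 TPM in Tfeb-Tg against 12.7 to 14.4 TPM in TfebWT cells with MSUc (1 of 3 at 1 TPM or more in both). Stromal markers summed to 6.98 to 7.68 TPM (3 of 5) against 13.0 to 26.2 TPM (4 of 5), and macrophage markers to 10896 to 11138 TPM against 12155 to 12592 TPM (8 of 8 in both). The part of these lists in the result was not tested. The total of 100 calls was 50 with the compared groups fitted alone, 65 without Tfeb-Tg MSUc replicate 3, and 53, 61 and 55 without TfebWT MSUc replicate 1, 2 and 3, the last being the library whose treatment label read PBS. The test of whether the MSUc response differed called 1 nearest gene upward and 1 downward, where 0.0751% and 0.025% of all genes were: Arhgef3 (1.43 ± 0.20) and Fam198b (-0.80 ± 0.11), both with an adjusted p of 0.021 by limma. Median-of-ratios scaling gave 1 and 2, against 0.0751% and 0.0334% of all genes, and without 1 library in turn the count was 0 to 2.

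Metformin and the label Ampka1KO moved many genes. With metformin and MSUc, against vehicle and MSUc, 257 of 1083 nearest genes (23.7%) were lower, where 14% of all genes were, and 257 (23.7%) were higher, where 29.6% of all genes were. Median-of-ratios scaling gave 386 lower and 179 higher, against 21.8% and 19.6% of all genes, so the balance of directions depends on the scaling. Il10 had 0.336, 0.739 and 0.637 TPM with metformin against 19.8, 23.6 and 20.6 TPM with vehicle (-3.83), and Malt1, a protease of NF-kB signalling, had 17.7, 22 and 22.9 TPM against 86, 87.3 and 83.3 TPM (-1.99). Tnfaip3 had 41.8, 69 and 70.5 TPM against 117, 112 and 116 TPM with vehicle (-0.95), and Csf1r fell by 1.17. Dot1l had 66.6, 98.1 and 107 TPM against 119, 129 and 115 TPM with vehicle (-0.44 ± 0.14, adjusted p = 0.027 by limma), a call that was lost without some single libraries and with the compared groups fitted alone; without metformin MSUc replicate 1 the value was -0.23. Upward, Vwf rose by 2.43, Kit by 2.18 and Osbp2 by 1.94. Of the nearest genes that rose with MSUc at 5 h 153 of 483 (31.7%) were lower with metformin, against 23.1% of other genes that rose. Macrophage markers (8 of 8 at 1 TPM or more in both groups) summed to 12509 to 15070 TPM with metformin and MSUc against 18237 to 21498 TPM with vehicle and MSUc, and stromal markers (5 of 5 in both) to 156 to 341 TPM against 477 to 608 TPM; their part in the result was not tested.

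In libraries labelled Ampka1KO with MSUc, against Ampka1WT with MSUc, 480 of 1061 nearest genes (45.2%) were lower, where 20.2% of all genes were, and 360 (33.9%) were higher, where 51.6% of all genes were. Median-of-ratios scaling, which moved the median of all genes by -0.44, gave 641 lower (60.4%) and 202 higher (19.0%), against 36.0% and 31.9% of all genes. Prkaa1, which encodes AMPK alpha 1, had 28.7, 31 and 26.5 TPM in those labelled Ampka1KO against 21.2, 23.3 and 21.5 TPM in Ampka1WT, so its transcript does not check the label. Dot1l had 36.5, 34.5 and 31.9 TPM against 136, 116 and 125 TPM in Ampka1WT (-1.85 ± 0.18). Syk, a tyrosine kinase of immune receptors with 4 shared peaks in its intron 1, had 48.3, 48.1 and 46.6 TPM against 191, 200 and 195 TPM (-2.01), and Csf2rb, the shared chain of cytokine receptors, had 225, 223 and 202 TPM against 1263, 1155 and 997 TPM (-2.38). Tnfaip3 fell by 1.62 and Slc7a11 by 1.37. Upward, Tpm1, a tropomyosin, had 1222, 1413 and 1479.8 TPM in those labelled Ampka1KO against 121, 123 and 99.4 TPM in Ampka1WT (3.57), and Cdc42ep3 (3.35), Lpp (3.04) and Tmem2 (2.75) rose with it. In these libraries stromal markers summed to 2369 to 2980 TPM (5 of 5 at 1 TPM or more) against 66.8 to 217 TPM in Ampka1WT (4 of 5), neutrophil markers to 334 to 391 TPM (6 of 7) against 11.4 to 64.9 TPM (4 of 7), and macrophage markers to 7492 to 9744 TPM against 25385 to 30897 TPM (8 of 8 in both). These lists moved with the genotype label, their part in the result was not tested, and the lower macrophage genes cannot be told apart from a lower share of macrophage RNA. Of the nearest genes that rose with MSUc at 5 h 277 of 474 (58.4%) were lower in libraries labelled Ampka1KO, against 36.8% of other genes that rose.

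Most nearest genes had no call in libraries labelled as knockouts of the transcriptional repressors Bhlhe40 and Bhlhe41. Bhlhe40 had 17.1 and 10.7 TPM in B40KO against 287 and 313 TPM in WT cells with MSUc (-4.37). By limma 0 of 1071 nearest genes were higher and 1 was lower in B40KO (85 had an unadjusted p under 0.05), where 0% and 0.0165% of all genes were. That gene, 0610040F04Rik, had 1.11 and 0.164 TPM in B40KO against 22.2 and 21.8 TPM in WT cells (-3.88 ± 0.23). Its transcript (chromosome 6, 108577036 to 108660934, mm10) overlaps the start of Bhlhe40, and how the authors divided reads between the genes is not given, so it is uncertain. Bhlhe41 had 49.5 and 50.3 TPM in B41KO against 94.9 and 90.1 TPM in WT cells (-0.88), so its transcript was lower but still present; which part of the gene was deleted is not given in the sources used here. In B41KO 13 nearest genes were higher and 12 lower, where 0.848% and 0.478% of all genes were, and median-of-ratios scaling gave 8 and 12, against 0.733% and 0.642% of all genes. Slc7a11 had 42.4 and 38.5 TPM in B41KO against 72.9 and 64.6 TPM in WT cells (-0.75), Arhgef3 differed by 1.03, Pdgfa, a growth factor, by 0.67 and Nf2, a tumour suppressor, by -0.45. These calls rest on single libraries: the total of 25 was 1 without B41KO replicate 1, 0 without B41KO replicate 2 and 0 without WT MSUc replicate 1, and with the compared groups fitted alone it was 0. In libraries labelled B41KO with MSUc neutrophil markers summed to 216.7 to 216.9 TPM (6 of 7 at 1 TPM or more) against 52.1 to 59.8 TPM in WT with MSUc (3 of 7), and erythroid and megakaryocyte markers, led by Pf4, to 76.9 to 78.2 TPM against 13.6 to 20.6 TPM (2 of 5 in both). Stromal markers summed to 55.3 to 58.0 TPM against 28.6 to 31.0 TPM (4 of 5 in both), and macrophage markers to 12745 to 13717.5 TPM against 17080.3 to 17969.7 TPM (8 of 8 in both). The part of these lists in the result was not tested.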

How the data were processed

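The authors deposited 8 expression tables, aligned with STAR and quantified with HOMER on mm10, per the submitters' processing notes. No unit stands in their headers. As deposited, the values behave as TPM: multiplied by transcript length, they fall within 0.15 read of whole multiples of a step for each library, and 1 transcript is kept for each gene symbol. Libraries were strand-specific and made from poly-A RNA, per the labels' protocols. The deposited peak lists of TFEB, TFE3 and DOT1L hold positions with HOMER's annotation, per the file headers. Their score column is 0 throughout, and how peaks were called is not given in the sources used here. For histone marks the authors deposited lists of changed regions, with a signal scaled to a library total by HOMER, per the file headers, and with their own log2 change and adjusted p-value. The last of these are printed as the authors' values, and the signal was not analysed.

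Overlaps of at least 1 bp were counted with Python 3.11.15, pandas 2.3.3 and numpy 2.4.6, and figures drawn with matplotlib 3.10.9. A count test had been planned for count tables; since the tables hold TPM, limma 3.58.1 (R 4.3.3, trend) was run on log2(TPM + 1) with 1 fit per experiment over all its groups. A gene entered if the number of libraries at 1 TPM or more was at least the size of the smallest group, with Benjamini-Hochberg adjustment over all genes tested in a comparison (two-sided, threshold 0.05). The scripts were tested on simulated data. Samples were grouped by title, and 2 columns of values that match no sample used here were left out; in the particle table the labels list 3 aluminum and 2 silica samples and the table holds 2 and 3 such columns. Replicate numbers did not pair the libraries. Named genes are up to 10 largest rises and falls at 5 h (log2 change of at least 1, 5 TPM, no overlap), genes with 6 or more shared peaks, up to 4 members of each of 12 pathway lists with the smallest p, and up to 5 genes per direction with the smallest p in each genotype or drug comparison, with Dot1l, Tfeb, Tfe3 and Mitf; genes of the promoter windows and those given across comparisons were added to these. Members, lists and tests were chosen with earlier results of these data known. Alternatives tried were the pseudocount (0.1), no filter on low values, median-of-ratios scaling, the compared groups alone, a replicate block, leaving out each library, peaks within 50 kb of the start and a TFEB peak covered for the most part.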

Additional observations from a re-analysis of the deposited data

Results flagged for a closer look

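The MSUc response of some nearest genes differed between cells that differ in a genotype or drug, by a test of that difference in limma (adjusted p under 0.05 over all genes tested). There were 50 such genes for the label Tfe3KO, 2 for the Tfeb transgene and 3 for SGC0946.

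For libraries labelled Tfe3KO, the change with MSUc minus that in Tfe3WT was -1.66 for Amz1, -1.01 for Ankrd12, -0.95 for Pfkfb3, -0.83 for Pdxk and -0.67 for Acap2. It was 0.80 for Nfkbiz, a regulator of NF-kB target genes, 0.76 for Kcnj2, a potassium channel gene, 0.53 for Myo1e, 0.47 for Gsap and 0.35 for Abi1. For Tfeb-Tg cells it was 1.43 for Arhgef3 and -0.80 for Fam198b. With SGC0946, minus vehicle, it was 0.77 for Rplp1, 0.74 for Gadd45b and 0.62 for Ybx1. Some of these calls were lost under other settings: that of Nfkbiz (0.69 to 0.73) and that of Gsap (0.42 to 0.43) without 1 of 4 libraries in turn and with the compared groups fitted alone, and that of Abi1 with the compared groups fitted alone. Arhgef3 lost its call in 10 settings, Fam198b in 11, Rplp1 in 10, Ybx1 in 6 and Gadd45b in 4, a replicate block and left-out libraries among them.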

How the results depend on the processing

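The 26 counts compared here are of nearest genes called in both directions together. Under pseudocount 0.1, peaks within 50 kb and median-of-ratios scaling, all 26 stayed within 1.5 times the main values. So did the 3 counts of peaks with most of the TFEB peak covered. By direction, median-of-ratios scaling moved some counts further. At 5 h 173 lower became 105, at 2 h 117 lower became 58, and for Ampka1KO with MSUc 360 higher became 202. Fitting the compared groups alone, which leaves fewer libraries to estimate the spread, gave 0 at 30 min, 14 at 1 h, 214 at 2 h, 127 for Tfe3KO, 21 for its difference of response, 50 for Tfeb-Tg, 183 for SGC0946 with MSUc, and 0 for SGC0946 in PBS, for B40KO and for B41KO. Without the filter B40KO had 2 calls.

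Replicate numbers did not pair the libraries. The replicate block gave 0 calls for the Tfeb-Tg difference of response, for SGC0946 in PBS and for the SGC0946 difference of response, and left the other 23 counts within 1.5 times. In the time course the numbers of PBS and MSUc ran against each other (correlations of -0.42 to -0.55 from 30 min on), and a crossed block, chosen after seeing the data, gave 1 call at 10 min, 39 at 30 min and 184 at 1 h.

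Leaving out 1 library gave 12 to 19 at 30 min, 54 to 67 at 1 h, 372 to 436 at 2 h, 139 to 162 for Tfe3KO, 26 to 71 for its difference of response, 53 to 86 for Tfeb-Tg, 0 to 2 for its difference, 179 to 277 for SGC0946 with MSUc, 0 to 6 in PBS, 0 to 9 for its difference, 1 to 1 for B40KO and 0 to 26 for B41KO. At 5 h it gave 574 to 600.

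Among single genes, scaling turned Tfeb (0.060) and Plxnc1 (0.178) at 5 h, and Psap with MSUc in Bhlhe WT (0.164) and inhibitor vehicle cells (0.073). Leaving out a library turned 5 h values without a call, with ranges of -0.024 to 0.079 for Gusb, -0.0043 to 0.697 for Mitf, -0.170 to 0.020 for Plxnc1, -0.108 to 0.158 for Tfe3 and -0.529 to 0.067 for Zfpm1. The cause was not tested. With a library left out 174 of 2001 single-gene values lost their call. Peak scores are 0 throughout, so the planned split by score was not run. Groups of 2 or 3 libraries limit the precision of each value.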
